A study of Mus musculus with 24 samples.

Results

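The proteasome subunit genes described here are the 45 genes whose mouse symbol is Psma, Psmb, Psmc, Psmd, Psme, Psmf or Psmg followed by a number, without the immunoproteasome catalytic subunits Psmb8, Psmb9 and Psmb10. They were chosen by name alone, out of 38215 genes in the deposited tables, and all 45 passed the filter on low values (4 or more libraries with 10 or more estimated reads). Sequenced was the RNA of dorsal root ganglia, the seat of the sensory neurons that send axons into the sciatic nerve, in mice of 3 strains labelled C57, CAST and DBA. In each strain there were 4 libraries of naive ganglia and 4 of ganglia taken 5 days after crush of the sciatic nerve, 24 libraries in all. The labels give no age, no sex and no transgene for any group, they call the libraries of a group biological replicates, and their treatment protocol names a sham operation where the sample labels say naive. The series concerns CAST/Ei mice, in which the regrowth of injured central axons was studied. Whole ganglia were used, so that fewer cells of a type and less RNA per cell cannot be told apart.

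The proteasome degrades proteins that carry ubiquitin chains. Its 20S core is a barrel of stacked rings: the outer rings are built of alpha subunits (Psma), which gate the entrance, and the inner rings of beta subunits (Psmb), of which Psmb5, Psmb6 and Psmb7 carry the proteolytic sites. A 19S cap binds the end of the barrel. The base of the cap is a ring of ATPases (Psmc), which unfold and thread the substrate, and non-ATPase subunits (Psmd) bind, recognise and de-ubiquitinate it. Chaperones help to build the core (Psmg) and the cap (Psmd5, Psmd9, Psmd10), the activators Psme1 to Psme4 open the core without ubiquitin, and Psmf1 (PI31) binds the core and links proteasomes to axonal transport. In axons, local degradation by the proteasome is known to take part in the turnover of proteins at growth cones and in the breakdown of cut fibres. The transcription factor Nfe2l1, which binds antioxidant-response-like elements, raises the expression of subunit genes together when proteasome activity is short.

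The label "constitutive" held for most of the 45 genes in these ganglia, but not for all. Psma8, the alpha subunit of testis, had between 1 and 59 estimated reads in a library, and Psmb11, the beta subunit of thymic epithelium, between 2 and 50. Every other member had at least 62 estimated reads in every library. Psme1 and Psme2 are also known as targets of interferon. Values are FPKM, a read level scaled to gene length and library depth, and its kilobase term was found to be the whole span of the gene, introns included. A gene with long introns therefore has a low FPKM even when it is well covered: Psmd11, with a mean of 0.192 in naive C57 ganglia, rested on 815 to 882 reads per library, and Psmd8, with a mean of 11.2, on 6633 to 7902. Levels of different genes are not compared below for that reason, and reads of a gene in introns count with those in exons.

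Promoter sequences are shown for Psmd8 and Psmd11, the members with the highest ratios after crush among those that rose in all strains. Psmf1, which moved in opposite directions between strains, is shown too. So are Psmb5, Psmb6 and Psmd9, 3 of the 6 members found to hold the core of the antioxidant response element, TGACNNNGC. Psmb5 and Psmb6 were called after crush in no strain. The runs are the 250 bases before the start of transcription, 5' to 3' on the strand of the gene, from RefSeq on GRCm38.p6, with the element in capitals. They lie at chr7:29180674-29180923 (minus strand), chr11:80428365-80428614 (plus), chr2:151741311-151741560 (minus), chr14:54617996-54618245 (minus), chr11:70525107-70525356 (plus) and chr5:123227940-123228189 (plus).
Psmd8: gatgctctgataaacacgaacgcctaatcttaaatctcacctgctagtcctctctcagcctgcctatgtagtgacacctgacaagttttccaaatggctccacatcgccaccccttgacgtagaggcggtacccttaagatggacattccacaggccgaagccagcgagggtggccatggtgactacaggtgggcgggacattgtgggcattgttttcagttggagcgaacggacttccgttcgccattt
Psmd11: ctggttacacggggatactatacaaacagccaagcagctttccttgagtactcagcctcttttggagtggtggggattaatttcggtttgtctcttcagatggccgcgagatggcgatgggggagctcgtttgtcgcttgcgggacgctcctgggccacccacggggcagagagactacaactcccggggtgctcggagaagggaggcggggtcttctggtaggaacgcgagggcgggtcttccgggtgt
Psmf1: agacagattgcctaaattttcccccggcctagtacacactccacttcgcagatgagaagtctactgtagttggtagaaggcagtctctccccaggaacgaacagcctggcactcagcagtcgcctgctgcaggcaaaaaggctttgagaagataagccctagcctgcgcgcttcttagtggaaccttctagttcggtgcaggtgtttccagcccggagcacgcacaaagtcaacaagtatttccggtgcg
Psmb5: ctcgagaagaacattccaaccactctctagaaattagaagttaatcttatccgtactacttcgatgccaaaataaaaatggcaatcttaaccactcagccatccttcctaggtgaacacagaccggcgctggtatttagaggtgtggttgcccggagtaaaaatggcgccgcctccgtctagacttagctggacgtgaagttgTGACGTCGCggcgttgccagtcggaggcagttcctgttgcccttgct
Psmb6: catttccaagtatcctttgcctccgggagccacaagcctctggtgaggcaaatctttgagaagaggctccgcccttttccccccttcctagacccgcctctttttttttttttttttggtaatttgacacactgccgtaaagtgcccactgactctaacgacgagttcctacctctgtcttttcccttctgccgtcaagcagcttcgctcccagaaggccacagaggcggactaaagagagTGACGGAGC
Psmd9: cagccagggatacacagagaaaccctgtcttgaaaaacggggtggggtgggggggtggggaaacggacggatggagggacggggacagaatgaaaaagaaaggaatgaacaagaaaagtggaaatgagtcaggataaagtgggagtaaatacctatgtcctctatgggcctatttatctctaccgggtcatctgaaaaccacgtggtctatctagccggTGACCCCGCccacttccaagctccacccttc
A window of 300 bases (250 before to 50 after the start) was found for 37 of the 45 members. TGACNNNGC, searched on both strands, occurred in 6 of these 37 (16.2%), against 14.0% of 27025 genes with such a window. The 6 were Psmb5, with the element 47 bases before the start, Psmb6 (9 bases before), Psmd9 (31 bases before), Psmc6, Psmd12 and Psme4. The CCAAT box, on both strands and overlapping no other motif searched, occurred in 13 members (35.1%), against 41.1% of genes. The first share was close to that of all genes and the second below it. Of the 6 members with a window that rose in all 3 strains, 0 held TGACNNNGC and 2 held CCAAT. Of the 18 with a window that rose in CAST, 1 held TGACNNNGC and 5 held CCAAT, against 5 and 8 of the 19 other members with a window. A match of these letters is a description and not a binding site.

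Depth and tissue were checked across the 24 libraries first. Library totals recovered from the values were 51.37 to 145.41 M reads, with a median of 107.0 M. Of the libraries, 3 stood apart: injured C57 replicate 3 was the shallowest (51.37 M, against at least 85.5 M in the others), naive DBA replicate 3 held 40.1 summed FPKM of 6 skeletal muscle markers (against at most 7.02 in any other library), and naive C57 replicate 1 had the highest summed FPKM of the 45 members in its group (189, against 155 to 168). Naive C57 replicate 1 was thus picked on the members themselves, and not on depth (95.96 M) or tissue. Naive DBA replicate 4, the highest of its group for 38 members, was not among the 3. Results that rest on the 3 libraries are given without them too. Of 63 marker genes of neurons, glia, immune cells and other cells, 0 were at 0 in every library. The 10 sensory neuron markers summed to 736 to 902 FPKM per library. After crush the 10 macrophage markers rose in all strains (10 of 10 in each), with summed levels per library of 8.74 to 12 FPKM in naive and 37.2 to 44.7 in injured C57, 7.63 to 10.3 and 46.1 to 63.8 in CAST, and 9.63 to 16.1 and 52.6 to 63.1 in DBA. Of 10 interferon response genes, 10 rose in CAST, 4 in DBA and 0 in C57 (limma, with 0 at an unadjusted p under 0.05 and 1 called by voom). Their summed level went from 4.79 to 5.77 to 40.9 to 89.1 FPKM in CAST, stayed between 10.5 and 18.2 in C57, and went from 6.54 to 7.50 to 9.87 to 16.3 in DBA. Of 6 fibroblast markers 5, 6 and 6 rose in C57, CAST and DBA, of 8 Schwann cell markers 2, 4 and 3, of 6 satellite glia markers 1, 1 and 2, and of 7 T cell markers 1, 6 and 3. In the same lists 1 Schwann cell marker fell in each strain, 1 satellite glia marker in CAST and 1 T cell marker in C57 (limma). Of all genes tested, 18.1%, 25.6% and 26.4% rose in C57, CAST and DBA, and 20.5%, 21.5% and 23.8% fell. Of the 10 sensory neuron markers 2 rose in each strain and 6, 7 and 7 fell, and 0, 0 and 2 of 6 skeletal muscle markers fell (limma). The 2 falls in DBA were lost without naive DBA replicate 3 (0 of 6), and in C57 and CAST 0 muscle markers were called at an unadjusted p under 0.05 or by voom. The part of the marker lists that moved with the crush in the results below was not tested.

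Crush of the nerve changed the RNA level of proteasome genes by small amounts, and in CAST ganglia more of them rose than in C57 or DBA ganglia. In C57, 10 members rose (22.2%, against 18.1% of the 27042 genes tested) and 5 fell (11.1%, against 20.5%), called by limma at an adjusted p under 0.05. In CAST, 21 members rose (46.7%, against 25.6% of all genes) and 4 fell (8.89%, against 21.5%). In DBA, 11 members rose (24.4%, against 26.4%) and 8 fell (17.8%, against 23.8%). The median ratio of injured to naive mean FPKM over the 45 members was 1.02, 1.13 and 1.01 in C57, CAST and DBA, and the median log2 fold change was 0.015, 0.079 and 0.003, where that of all genes lay within 0.002 of 0. The share of members that rose was thus above the share of all genes by a wide margin in CAST, and close to it in C57 and DBA. Fitted with the 2 groups of C57 alone, 5 members rose and 2 fell in that strain.

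**Figure D1:**
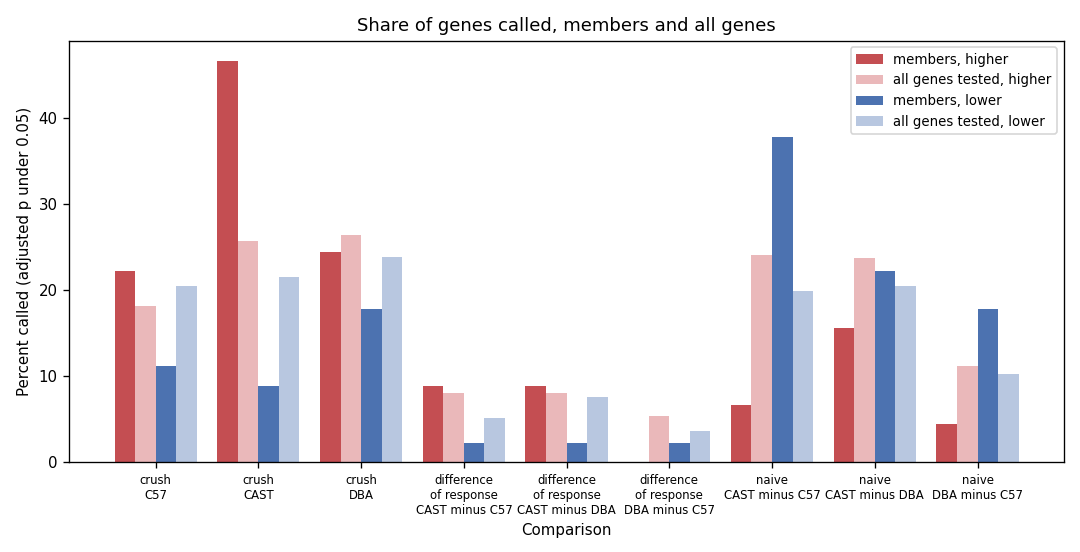
Bars give the percent of the 45 members (dark) and of all genes tested (pale) called higher (red) or lower (blue) by limma at an adjusted p under 0.05, in each of the 9 comparisons on the horizontal axis. The red member bar for crush in CAST (46.7%) stands above the pale bar beside it (25.6%), and the blue member bar for naive CAST against C57 (37.8%) above its own (19.9%).

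In all 3 strains 7 members rose: Psmd8, Psmd11, Psmd3, Psmd2, Psmc4, Psma7 and Psme3 (15.6% of members, against 13.1% of all genes). That share lay near the share of all genes. Both Psmd5 and Psmg2 fell in all 3 strains (4.4% of members, against 13.7% of all genes), and did so under every alternative. Psmc4, Psmd2, Psmd3, Psmd8 and Psmd11 kept their rise in all strains under every alternative, while Psma7 lost it in 1 strain or more when any of 14 libraries was left out, under upper-quartile or median-ratio scaling, with no filter on low values and when each pair of groups was fitted alone. Psme3 lost it under the last of these. Without naive C57 replicate 1 the shared rises numbered 9, with Psmb3 and Psmb7 added. Of the 45 members, 33 were called in at least 1 strain and 12 in none, namely Psma1, Psma2, Psma4, Psma6, Psmb1, Psmb5, Psmb6, Psmc3, Psmd1, Psmd10, Psmd12 and Psme4. One gene, Psmf1, was called in opposite directions. Under every alternative that gave a value, 7 of the 15 calls in C57 held, 22 of 25 in CAST and 15 of 19 in DBA. Those that did not hold were Psma3, Psma7, Psmc1, Psmc5, Psmd4, Psmd13, Psme3 and Psmf1 in C57, Psmc5, Psmc6 and Psmd4 in CAST, and Psma8, Psmd6, Psmd14 and Psme2 in DBA. The 3 crush comparisons use separate libraries and share only the estimate of the spread. The plot of ratios by subunit group shows every member.

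**Figure D2:**
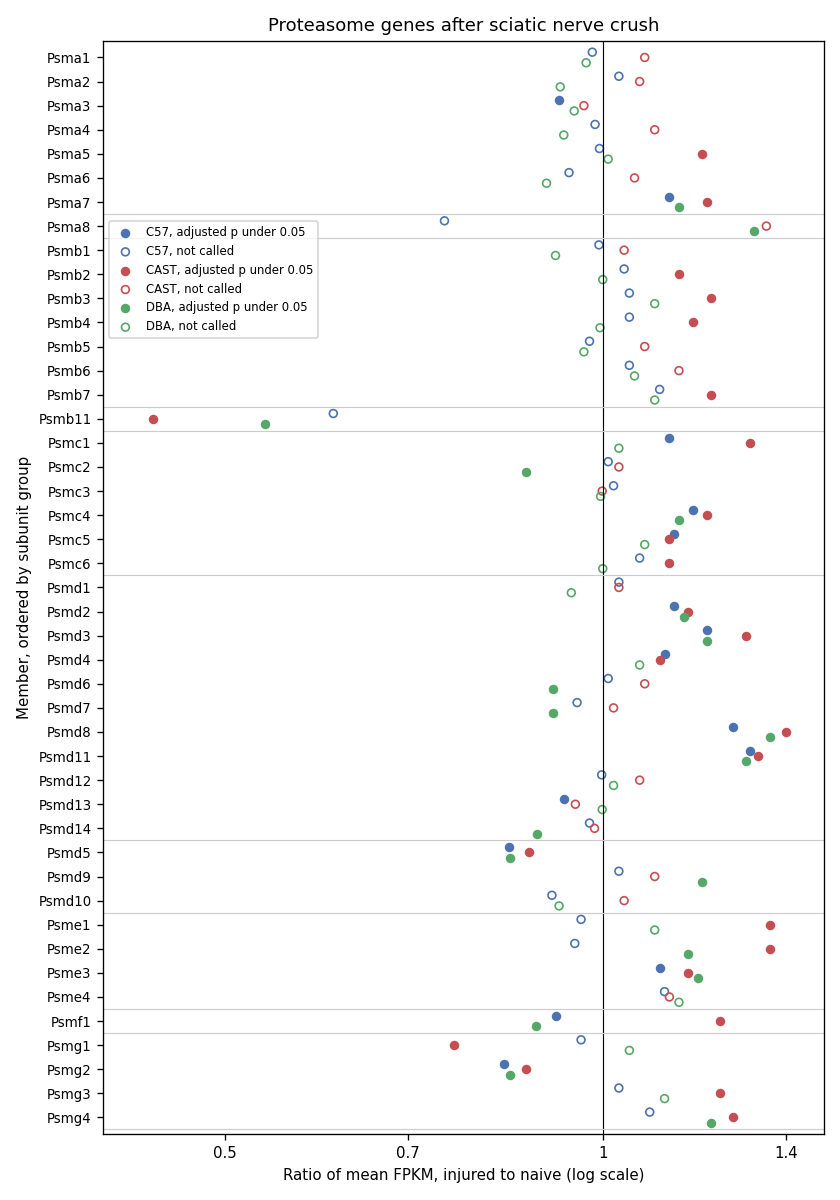
Each row is a member, in order of subunit group with groups parted by grey lines. Each point is the ratio of mean FPKM in injured to naive ganglia of a strain (log axis, 4 libraries per group), filled where limma called the change. Psmd8 and Psmd11 lie to the right in all strains (1.27 to 1.4), Psmd5 and Psmg2 to the left (0.835 to 0.874), and Psmf1 lies on both sides (0.917, 1.24 and 0.885).

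The largest ratios among the shared rises were those of 19S cap subunits. Of its 11 non-ATPase subunits, 5, 5 and 4 rose in C57, CAST and DBA, whereas 1, 0 and 3 fell. Of all genes tested, 18.1%, 25.6% and 26.4% rose and 20.5%, 21.5% and 23.8% fell. These shares stand beside the counts of every subunit group below too. The groups are small, and they were described and not tested as sets. Psmd8 (Rpn12, chr7:29174188-29180701), a lid subunit that docks late in the assembly of the cap, had FPKM of 12.6, 10.5, 10.6 and 10.9 in naive and 14.5, 14.1, 14.5 and 13.7 in injured C57 ganglia. In CAST it had 11.9, 11.9, 12.3 and 11.6 in naive and 16.0, 15.7, 17.7 and 17.6 in injured ganglia. In DBA the values were 11.5, 11.2, 11.2 and 12.4, and 15.6, 15.4, 15.9 and 16.1. Every injured library lay above every naive library of its strain. The ratios of the means were 1.27, 1.4 and 1.36 in C57, CAST and DBA, with log2 fold changes on the log2(FPKM + 1) scale of 0.32, 0.45 and 0.41 (SE 0.049 each; limma adjusted p = 1.92e-05, 1.47e-07 and 5e-07).

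Psmd11 (Rpn6, chr11:80428615-80473248), the lid subunit that clamps cap and core together, rose by almost the same ratio in each strain. It had 0.190, 0.20, 0.196 and 0.184 FPKM in naive and 0.261, 0.239, 0.269 and 0.241 in injured C57 ganglia. The CAST libraries had 0.188, 0.194, 0.206 and 0.187, and then 0.249, 0.252, 0.283 and 0.250. In DBA it had 0.184, 0.190, 0.187 and 0.179, and then 0.254, 0.226, 0.256 and 0.232. The groups did not overlap in any strain. The ratios were 1.31, 1.33 and 1.30, with limma log2 fold changes of 0.071, 0.076 and 0.067 (SE 0.01 each; adjusted p = 1.11e-05, 3.23e-06 and 1.36e-05), which are small because the FPKM of this long gene lies far below the added 1.

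Psmd3 (Rpn3, another lid subunit) rose in C57 from 2.81 ± 0.106 to 3.39 ± 0.146 FPKM, in CAST from 3.03 ± 0.0416 to 3.94 ± 0.0758 and in DBA from 2.85 ± 0.0413 to 3.44 ± 0.0592 (mean ± SD, n = 4; ratios 1.21, 1.30 and 1.21; limma adjusted p = 1.05e-06, 3.97e-09 and 5.87e-07). Psmd2 (Rpn1), the base subunit that receives ubiquitin shuttles, rose by ratios of 1.14, 1.17 and 1.16. Psmd4 (Rpn10), a ubiquitin receptor, rose in C57 (1.12) and CAST (1.11), with 1.07 in DBA, where it was not called. On the other side, the lid subunit Psmd13 fell in C57 (0.931), and 3 lid subunits fell in DBA: Psmd6 (0.913), Psmd7 (0.912) and the deubiquitinase Psmd14 (0.887). The non-ATPase subunits thus did not move as a unit: in C57 their ratios ran from 0.931 to 1.31, in CAST from 0.951 to 1.4 and in DBA from 0.887 to 1.36.

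Of the 6 ATPases of the 19S base, 3, 4 and 1 rose in C57, CAST and DBA, and 1 fell, in DBA. Psmc4 (Rpt3, chr7:28041707-28050101) rose in all strains: in C57 from 2.51 ± 0.221 to 2.97 ± 0.0539 FPKM, in CAST from 2.31 ± 0.0453 to 2.79 ± 0.117 and in DBA from 2.46 ± 0.0865 to 2.84 ± 0.093 (SD, n = 4; ratios 1.18, 1.21 and 1.15). Psmc1 (Rpt2, chr12:100110154-100123405), whose tail opens the gate of the core, had 9.83, 8.69, 8.20 and 8.84 FPKM in naive and 9.86, 9.63, 10.7 and 9.89 in injured C57 ganglia. In CAST it went from 9.57, 9.41, 9.55 and 9.68 to 12.2, 11.7, 13.2 and 12.9, and in DBA from 9.13, 8.72, 8.64 and 9.43 to 9.25, 9.24, 9.18 and 9.39. The CAST groups stood clear of each other, whereas naive and injured values overlapped in C57 and DBA. The ratios were 1.13 (limma adjusted p = 0.00694), 1.31 (9.55e-07) and 1.03 (0.47).

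Psmc2 (Rpt1, chr5:21785283-21803787) fell in DBA. Its FPKM there was 4.79, 4.74, 4.71 and 5.07 in naive and 4.24, 4.14, 4.15 and 4.24 in injured ganglia, with no overlap. In C57 it had 5.29, 4.50, 4.58 and 4.71, and then 4.81, 4.85, 4.86 and 4.76. In CAST it had 4.76, 4.6, 5.07 and 4.64, and then 4.84, 4.57, 4.96 and 5.20. The groups overlapped in both, and the ratios were 1.01 in C57, 1.03 in CAST and 0.868 in DBA (limma adjusted p = 0.81, 0.564 and 0.00118). Of the other ATPases, Psmc5 rose in C57 (1.14) and CAST (1.13) and Psmc6 in CAST (1.13), while Psmc3 had ratios of 1.02, 0.999 and 0.996 and was not called.

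In the 20S core more subunits were called in CAST than in the other strains. Of the 7 beta subunits Psmb1 to Psmb7, limma called 0 in C57 and 0 in DBA (1 and 2 at an unadjusted p under 0.05, and 1 and 0 called by voom on estimated reads). In CAST 4 rose: Psmb2 (1.15), Psmb3 (1.22), Psmb4 (1.18) and Psmb7 (1.22). The counts in C57 and DBA changed without naive C57 replicate 1: 3 beta subunits then rose in C57 (Psmb3, Psmb4 and Psmb7) and 2 in DBA (Psmb3 and Psmb7). That library had the highest naive C57 values of these genes, so leaving it out raises their C57 ratios by arithmetic. It enters the DBA comparison only through the estimate of the spread. Without the 3 libraries that stood apart, 4 rose in C57 and 5 in CAST, and 1 fell in DBA. Over the 7, the median ratios were 1.05, 1.15 and 1.0 in C57, CAST and DBA. The catalytic Psmb5 had ratios of 0.976, 1.08 and 0.966 and the catalytic Psmb6 of 1.05, 1.15 and 1.06, and neither passed the test. The log2 fold change of Psmb5 was -0.022, 0.10 and -0.049, with an SE of 0.093, wider than the 0.049 of Psmd8. Of the 7 alpha subunits Psma1 to Psma7, 1, 2 and 1 rose in C57, CAST and DBA. Psma7 rose in all strains (1.13, 1.21 and 1.15), Psma5 in CAST (1.2, with 0.994 in C57 and 1.01 in DBA), and Psma3 fell in C57 (0.923).

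Among the activators, Psme3 (PA28 gamma, the nuclear activator) rose in all strains, and Psme1 and Psme2 (PA28 alpha and beta, which together form the cytoplasmic ring) rose in CAST. Psme3 went in C57 from 3.75 ± 0.124 to 4.16 ± 0.163 FPKM, in CAST from 3.65 ± 0.116 to 4.29 ± 0.191 and in DBA from 3.35 ± 0.0178 to 3.99 ± 0.213 (SD, n = 4; ratios 1.11, 1.17 and 1.19). Psme2 (chr14:55587441-55591113) had 0.447, 0.343, 0.354 and 0.361 FPKM in naive and 0.307, 0.387, 0.328 and 0.406 in injured C57 ganglia. The CAST libraries had 0.322, 0.312, 0.340 and 0.361, and then 0.465, 0.459, 0.451 and 0.443. Those of DBA had 0.339, 0.353, 0.326 and 0.370, and then 0.375, 0.431, 0.431 and 0.386. Injured libraries lay above the naive ones in CAST and DBA and overlapped with them in C57. The ratios were 0.950, 1.36 and 1.17 (limma adjusted p = 0.561, 0.000179 and 0.0369). The DBA call was lost under 6 settings and when any of 5 libraries was left out (adjusted p = 0.0141 to 0.108 over the alternatives).

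Psme1 (chr14:55578123-55581529), which lies beside Psme2 on the chromosome, had 0.625, 0.473, 0.490 and 0.570 FPKM in naive and 0.504, 0.524, 0.489 and 0.557 in injured C57 ganglia. In CAST it had 0.413, 0.431, 0.431 and 0.370, and then 0.633, 0.579, 0.485 and 0.544. In DBA it had 0.446, 0.498, 0.521 and 0.549, and then 0.564, 0.521, 0.608 and 0.517. The groups stood apart in CAST and overlapped in C57 and DBA, and the ratios were 0.961, 1.36 and 1.1 (limma adjusted p = 0.692, 0.000842 and 0.248). Both genes rested on few reads, 86 to 269 per library for Psme1 and 62 to 237 for Psme2. Psme2 also shares transcript sequence with other annotated genes, and the pseudogene row Psme2b-ps, at 17.2 ± 1.29 FPKM in naive and 26.7 ± 0.602 in injured CAST ganglia (SD, n = 4), rose with it (ratios 1.01, 1.56 and 1.17). The division of reads between the rows is not stated. The interferon response genes rose beside both in CAST (10 of 10) and were not called in C57 (0 of 10), and their part in the change of Psme1 and Psme2 was not tested. Psme4 (PA200) had ratios of 1.12, 1.13 and 1.15 and was called in no strain (limma adjusted p = 0.0742, 0.0738 and 0.0567).

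Psmf1 (PI31, chr2:151715812-151744186) was the single member that changed in opposite directions. It had 0.549, 0.510, 0.486 and 0.528 FPKM in naive and 0.456, 0.482, 0.480 and 0.483 in injured C57 ganglia. The CAST libraries had 0.473, 0.480, 0.480 and 0.465, and then 0.594, 0.601, 0.592 and 0.567. Those of DBA had 0.469, 0.468, 0.447 and 0.483, and then 0.402, 0.423, 0.417 and 0.411. Every injured library lay below every naive one in C57 and DBA, and every injured library lay above in CAST. The ratios were 0.917, 1.24 and 0.885, with limma log2 fold changes of -0.041, 0.11 and -0.054 (SE 0.012 each; adjusted p = 0.00931, 2.52e-07 and 0.000793), on 699 to 2339 estimated reads per library. The fall in C57 was lost when the C57 groups were fitted alone (adjusted p = 0.123). The injured CAST ganglia thus had the highest Psmf1 of the 6 groups, at 0.588 ± 0.0148, and injured DBA ganglia the lowest, at 0.413 ± 0.00901 (SD, n = 4).

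**Figure D3:**
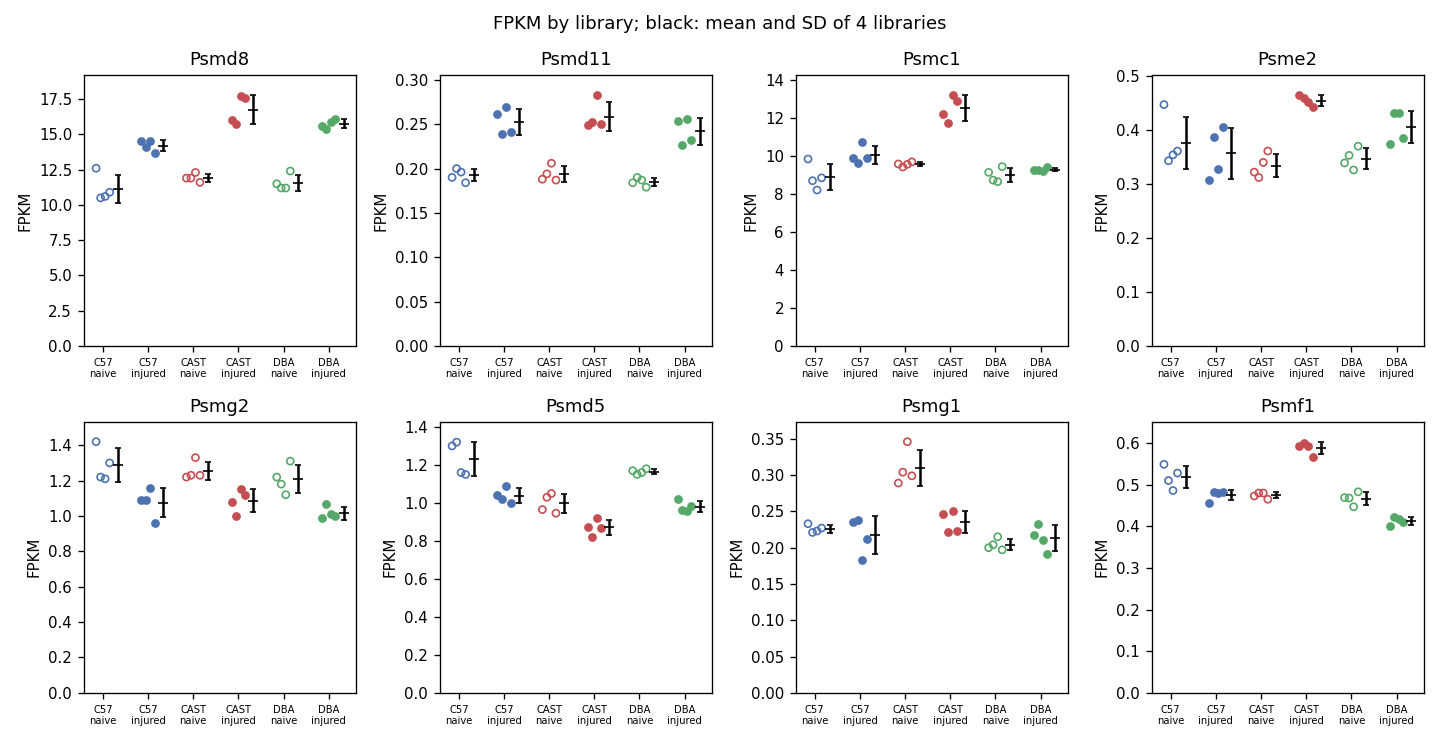
FPKM of 8 members (one panel each, vertical axis from 0) in the 24 libraries, open circles for naive and filled for injured ganglia, with the mean and SD of the 4 libraries in black. Psmd8 and Psmd11 are higher after crush in every strain and Psmg2 and Psmd5 lower. Psmf1 is higher in injured CAST (0.567 to 0.601) than in naive CAST (0.465 to 0.480), and lower after crush in C57 and DBA.

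Assembly chaperones held the members that fell in every strain. Psmd5 (chr2:34849734-34874968), which holds ATPases of the base before the cap is closed, had 1.30, 1.32, 1.16 and 1.15 FPKM in naive and 1.04, 1.02, 1.09 and 1.0 in injured C57 ganglia. In CAST it had 0.965, 1.03, 1.05 and 0.946, and then 0.872, 0.822, 0.921 and 0.868. In DBA it had 1.17, 1.15, 1.16 and 1.18, and then 1.02, 0.961, 0.955 and 0.983. Injured libraries lay below naive ones throughout, with ratios of 0.842, 0.874 and 0.843 (limma log2 fold changes of -0.13, -0.094 and -0.13, SE 0.025 each; adjusted p = 0.000283, 0.00433 and 0.000252). The other cap chaperones differed from it: Psmd9 rose in DBA (1.2, with 1.03 in C57 and 1.1 in CAST) and Psmd10 (gankyrin) was not called (0.911, 1.04 and 0.923).

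Psmg2, which with Psmg1 forms the chaperone pair that seeds the alpha ring, had 1.42, 1.22, 1.21 and 1.30 FPKM in naive and 1.09, 1.09, 1.16 and 0.962 in injured C57 ganglia. The CAST libraries had 1.22, 1.23, 1.33 and 1.23, and then 1.08, 1.0, 1.15 and 1.12. Those of DBA had 1.22, 1.18, 1.12 and 1.31, and then 0.987, 1.07, 1.01 and 1.0. Here too no injured library reached a naive one of its strain, and the ratios were 0.835, 0.869 and 0.843 (limma adjusted p = 0.00221, 0.011 and 0.0032). Its partner Psmg1 (chr16:95979933-95990960) fell in CAST and was not called in the other strains. It had 0.233, 0.221, 0.223 and 0.227 FPKM in naive and 0.236, 0.238, 0.183 and 0.212 in injured C57 ganglia. In CAST it had 0.289, 0.304, 0.346 and 0.299, and then 0.247, 0.222, 0.250 and 0.223. In DBA it had 0.20, 0.204, 0.215 and 0.197, and then 0.218, 0.233, 0.211 and 0.191. The CAST groups did not overlap and the others did, and the ratios were 0.961, 0.761 and 1.05 (limma adjusted p = 0.624, 7.06e-05 and 0.564). The second pair of core chaperones went up where it was called: Psmg3 in CAST (1.24) and Psmg4 in CAST (1.27) and DBA (1.22).

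For both tissue-restricted subunits the values lay near the floor. Psma8 had 0.00648, 0.00623, 0.00687 and 0.00641 FPKM in naive and 0.0106, 0.00773, 0.00950 and 0.00648 in injured DBA ganglia, on 32 to 59 reads, and its call there (ratio 1.32, limma adjusted p = 0.0405) was lost when any of 6 DBA libraries was left out. In naive CAST ganglia it rested on 1 to 4 reads per library. Psmb11 fell in CAST, where it had 0.0362, 0.0268, 0.0399 and 0.0494 FPKM in naive and 0.0148, 0.0225, 0.0164 and 0.0129 in injured ganglia, on 13 to 42 reads (ratio 0.438, limma adjusted p = 0.00704). In DBA it went from 0.0536, 0.0401, 0.0303 and 0.0538 to 0.0262, 0.0271, 0.0198 and 0.0224 (ratio 0.538, limma adjusted p = 0.00916). In C57 it had 0.0221, 0.00727, 0.0409 and 0.0241, and then 0.0132, 0.0208, 0.00458 and 0.0190, which overlap (ratio 0.610). Both genes failed a stricter filter of at least 50 estimated reads in 4 libraries.

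Whether the response to crush differed between strains was tested directly, as the difference of log2 fold changes. A higher response can thus be a larger rise or a smaller fall, and a lower one a smaller rise or a larger fall. Between CAST and C57, 4 members had a higher response in CAST (8.89%, against 7.99% of all genes) and 1 a lower one (2.22%, against 5.13%). Between CAST and DBA the counts were 4 higher (8.89%, against 8.08%) and 1 lower (2.22%, against 7.54%). Between DBA and C57, 0 were higher in DBA (against 5.38% of all genes) and 1 was lower (2.22%, against 3.65%). At an unadjusted p under 0.05, 3 members had a higher response in DBA than in C57, and voom on estimated reads called 0. These shares lay near or below those of all genes.

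Psmf1 differed most clearly: its response in CAST exceeded that in C57 by 0.15 (SE 0.017, a ratio of ratios of 1.35; limma adjusted p = 2.97e-06) and that in DBA by 0.16 (SE 0.017, 1.4; 7.85e-07). Psmg1 fell in CAST and was not called in the other strains. Its fold change in CAST was lower than in C57 (ratio of ratios 0.791, limma adjusted p = 0.0215) and than in DBA (0.727, 0.00267). The difference from C57 had an adjusted p of up to 0.0562 over the alternatives. It was lost under 2 settings and without injured C57 replicate 2. Psmc1 responded more in CAST than in DBA (1.27, limma adjusted p = 0.00112). Its difference from C57 (1.16, 0.0391) was lost under 5 settings, upper-quartile and median-ratio scaling among them, and when any of 11 libraries was left out (up to 0.186). For Psme1 and Psme2 the response in CAST exceeded that in C57 (ratios of ratios 1.42 and 1.43; limma adjusted p = 0.0193 and 0.00531), while against DBA the differences of 0.098 (SE 0.045) and 0.064 (SE 0.034) did not pass (0.172 and 0.247). Without the 3 libraries that stood apart, the Psme1 difference from C57 no longer passed (adjusted p = 0.0767). The pseudogene row Psme2b-ps, which rose beside Psme2, had a called difference from C57 (ratio of ratios 1.55, limma adjusted p = 0.000314). It also had one from DBA (1.34, 0.00811). Psmc2 and Psmd6 fell in DBA and were not called in CAST. Their fold changes were higher in CAST than in DBA (ratio of ratios 1.18 each, limma adjusted p = 0.0166 and 0.0266). Both differences were lost under upper-quartile and median-ratio scaling (up to 0.0839 and 0.0998), and that of Psmd6 also when any of 4 libraries was left out. The fold change of Psmc2 was lower in DBA than in C57 (0.859, 0.043), a call lost under 5 settings and when any of 16 libraries was left out.

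The larger number of rises in CAST is therefore not matched by as many tested differences. Of the 8 members that rose in CAST and were called in neither other strain (Psma5, Psmb2, Psmb3, Psmb4, Psmb7, Psmc6, Psme1 and Psmg3), Psme1 had a called difference from C57, and none had one from DBA. The shared members gave no called difference either. Psmd8 differed between CAST and C57 by 0.13 (SE 0.069, limma adjusted p = 0.265), and Psmd11 by 0.0049 (SE 0.015, 0.897). The 3 comparisons of responses share libraries, and their counts are not independent. Without the 3 libraries that stood apart (a choice made after seeing the data), the members with a higher response in CAST than in DBA numbered 11 and not 4. They numbered 7 without naive C57 replicate 1, which enters that comparison only through the estimate of the spread, and 2 under upper-quartile or median-ratio scaling.

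In naive ganglia the strains differed in more members than their responses did, and the same held for all genes tested. A difference of responses also has the larger SE. Reads of all strains were aligned to mm10, which is built from C57BL/6J, so a difference in level between strains and a difference in how well their reads map cannot be told apart. Against naive C57, 3 members were higher in naive CAST (6.67%, against 24.1% of all genes) and 17 lower (37.8%, against 19.9%). Against naive DBA, 7 were higher in CAST (15.6%, against 23.7%) and 10 lower (22.2%, against 20.5%). Under upper-quartile scaling this split was 2 higher and 13 lower, and under median-ratio scaling 3 and 10. Naive DBA had 2 members higher than naive C57 (4.44%, against 11.1%) and 8 lower (17.8%, against 10.2%). The 3 comparisons share the naive libraries.

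Psma5 (chr3:108256926-108279974), an alpha ring subunit, was lower in naive CAST than in both other strains. It had 1.18, 1.07, 0.982 and 1.01 FPKM in naive C57, 0.764, 0.683, 0.729 and 0.687 in naive CAST and 1.04, 1.03, 1.01 and 1.12 in naive DBA ganglia. No CAST library reached a C57 or DBA one, and the ratios were 0.675 against C57 and 0.683 against DBA (limma adjusted p = 3.91e-07 and 6.11e-07). After crush it reached 0.859 ± 0.0428 in CAST (SD, n = 4), still below naive C57 at 1.06 ± 0.0879. Of the 50-base windows of its transcripts, 50% also occur in transcripts of other genes, so that its reads may be shared with those rows. Psmg1 stood the other way, at 0.310 ± 0.025 in naive CAST against 0.226 ± 0.00516 in C57 and 0.204 ± 0.00781 in DBA (ratios 1.37 and 1.52; limma adjusted p = 1.93e-05 and 8.7e-07), and its injured CAST values (0.222 to 0.250) overlapped with naive C57 (0.221 to 0.233).

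Psmd9 (chr5:123169413-123250131) fell in order from C57 to DBA to CAST in naive ganglia. It had 0.507, 0.425, 0.442 and 0.493 FPKM in C57, 0.373, 0.389, 0.389 and 0.371 in DBA and 0.328, 0.354, 0.342 and 0.332 in CAST, and no 2 neighbours in this order overlapped. The ratios were 0.815 for DBA against C57, 0.891 for CAST against DBA and 0.726 for CAST against C57 (limma adjusted p = 0.000281, 0.0272 and 7.58e-07). The difference between CAST and DBA was lost under 1 setting and when any of 4 libraries was left out (up to 0.121). This row overlaps 3 other annotated genes. Psme4 (chr11:30771726-30880361), an activator that is most abundant in testis, was highest in C57, at 0.675, 0.895, 0.925 and 0.779, then CAST, at 0.720, 0.707, 0.710 and 0.645, and then DBA, at 0.594, 0.597, 0.554 and 0.558. C57 and CAST values overlapped and DBA values lay below all others, with ratios of 0.849 for CAST against C57 and 0.703 for DBA against C57 (limma adjusted p = 0.0185 and 8.24e-05). The first of these was lost under 2 settings and when any of 3 libraries was left out.

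Psmg4 was higher in naive DBA than in C57, with 0.192, 0.217, 0.170 and 0.235 against 0.166, 0.123, 0.126 and 0.166 FPKM (ratio 1.4, limma adjusted p = 0.00266). The test with these groups alone gave an adjusted p of 0.0629, and the alternatives spanned 0.000197 to 0.0629. Psma8 had 0.000685, 0.000312, 0.000532 and 0.000170 FPKM in naive CAST, against 0.00334, 0.00495, 0.00582 and 0.00612 in C57 and 0.00648, 0.00623, 0.00687 and 0.00641 in DBA. With 1 to 4 reads per library in CAST it passed the filter only through the other strains, so that this is a description. Without it, 16 members were lower in naive CAST than in C57 and 9 than in DBA. Psmb11, at 0.0444 ± 0.0114 in naive DBA and 0.0236 ± 0.0138 in naive C57 (SD, n = 4), was called too (ratio 1.88, limma adjusted p = 0.0192), with overlapping values. Psmf1 and Psmd5, described above for their response, were lower in naive CAST than in naive C57 as well (ratios 0.915 and 0.809). The core subunit Psma1 was lower than in C57 in both strains (0.773 in CAST and 0.834 in DBA).

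Part of the spread within groups was shared by most members, which bears on these counts. Naive C57 replicate 1 had the highest FPKM of its group for 37 of the 45 members. Naive DBA replicate 4 was the highest of its group for 38 members, and injured CAST replicate 2 the lowest for 32. Psmb5, for example, had 19.5 FPKM in naive C57 replicate 1 and 13.3, 13.4 and 15.6 in the others. Without naive C57 replicate 1, the members lower in naive CAST than in naive C57 numbered 11 and those higher 7, while crush in C57 gave 13 rises and 3 falls. Without naive DBA replicate 4, the members lower in naive CAST than in naive DBA numbered 6, and crush in DBA gave 12 rises and 6 falls. The rises in CAST numbered 25 without naive C57 replicate 1, 23 without naive DBA replicate 4 and 24 without injured CAST replicate 2. Leaving out a library that is the highest or lowest of its group for most members moves their ratios by arithmetic. What these libraries share was not tested.

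**Figure D4:**
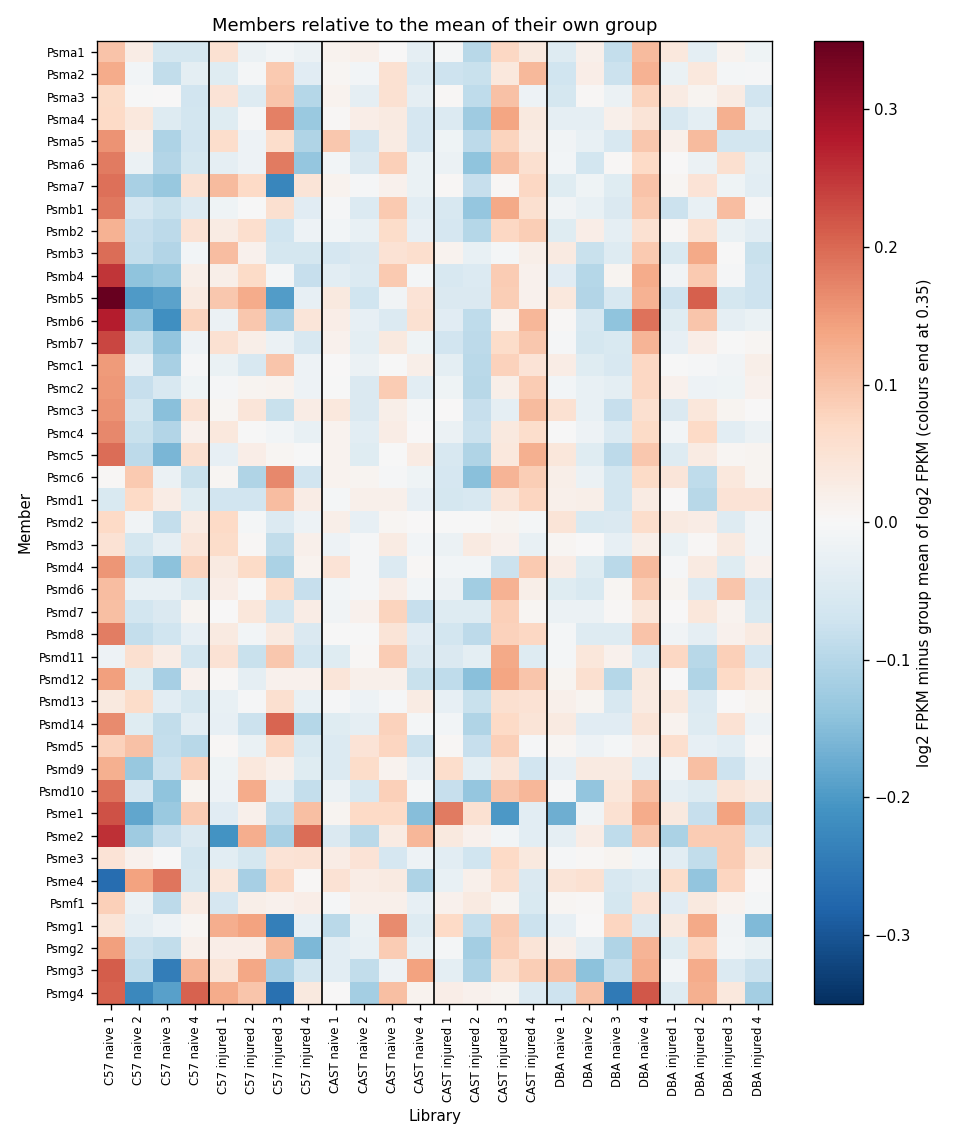
Colours give log2 FPKM of 43 members (rows, without Psma8 and Psmb11) in each of the 24 libraries (columns) minus the mean of log2 FPKM of its own group, and black lines part the groups. The columns of naive C57 replicate 1 and naive DBA replicate 4 are red for most members, and that of injured CAST replicate 2 is blue.

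Summed over the 45 members, FPKM in C57 was 168 ± 15.0 in naive and 177 ± 3.15 in injured ganglia, in CAST 160 ± 2.3 and 183 ± 8.49, and in DBA 162 ± 7.54 and 169 ± 3.07 (SD, n = 4). Per library the CAST sums did not overlap (157 to 162 and 174 to 191), whereas those of C57 (155 to 189 and 175 to 181) and DBA (157 to 173 and 167 to 173) did. Genes with short spans weigh most in these sums.

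Of 30 further genes of the pathway, 6, 14 and 13 rose in C57, CAST and DBA (20%, 46.7% and 43.3%, against 18.1%, 25.6% and 26.4% of all genes), and 5, 7 and 8 fell (16.7%, 23.3% and 26.7%, against 20.5%, 21.5% and 23.8%). The rises in C57 and the falls in each strain lay near the shares of all genes. Adrm1 (Rpn13), a ubiquitin receptor of the cap whose symbol lies outside the Psm series, rose like Psmd8 and Psmd11, with ratios of 1.29, 1.31 and 1.33. The deubiquitinases that dock on the cap fell in all strains, Usp14 by ratios of 0.862, 0.836 and 0.767 and Uchl5 by 0.879, 0.859 and 0.884. So did Nfe2l1, the activator of subunit genes (0.884, 0.766 and 0.790), and Ngly1, the enzyme that activates it by removing its sugars (0.868, 0.90 and 0.793). The 4 genes listed for transcriptional control did not all fall. Nfe2l2 rose in CAST (1.22) and DBA (1.31), with 1.04 in C57, where it was not called. Ddi2 fell in CAST (0.878) and was not called in C57 (0.912) or DBA (0.922). Ubb, which supplies ubiquitin, rose in all strains (1.15, 1.21 and 1.18). Among those that deliver substrates, Rad23b (1.16, 1.14 and 1.15), Ubqln2 (1.08, 1.1 and 1.08) and Vcp (1.13, 1.07 and 1.08) rose in all strains.

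The immunoproteasome catalytic subunits, which replace Psmb5, Psmb6 and Psmb7 in cells exposed to interferon, rose more than any ring subunit above in CAST. Psmb8 went from 0.501 ± 0.0264 to 2.0 ± 0.248 FPKM, Psmb9 from 0.131 ± 0.0141 to 0.458 ± 0.0997 and Psmb10 from 7.16 ± 0.321 to 11.1 ± 1.36 (SD, n = 4; ratios 3.99, 3.49 and 1.55), while limma called 0 of the 3 in C57 (1.29, 1.48 and 1.02), as did voom. In DBA, Psmb8 and Psmb9 rose too (ratios 2.13 and 1.7, limma adjusted p = 0.000416 and 0.0253), with 1.13 for Psmb10, which was not called.

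Several of these values carry an uncertainty of counting. Of the 45 members, 9 share over 10% of the 50-base windows of their transcripts with other genes (Psma3, Psma4, Psma5, Psmb3, Psmb5, Psmc1, Psmd2, Psmd9 and Psme2), and 19 overlap another annotated gene. For 8 members the gene span differs by over 10% between GENCODE and RefSeq (Psma2, Psma3, Psmb11, Psmc3, Psmd12, Psmd5, Psmd9 and Psme1), which shifts their estimated reads but not the ratio between groups. The direction of the 28 changes and strain differences of single genes that the naming rule picked was the same under each alternative that gave a value, and 23 of the 28 passed the test under each of these. The rule picked the largest called changes in these data, so passing again was partly set by that choice. The 23 include the differences of Psma8 between naive CAST and the other strains, which are a description only. Psma8 and Psmb11 gave none at 50 or more estimated reads.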

How the data were processed

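RNA of whole dorsal root ganglia was sequenced in 24 libraries, 4 in each of 6 groups, which the labels call biological replicates. The values are FPKM as deposited by the authors, 1 column per library. Reads were aligned with STAR 2.3.0 to mm10, per the submitters' processing notes. Not given in the sources used here are the counting tool, its annotation, its strand setting and its handling of multi-mapping reads. Each library had the same values in its own file and in the series table (24 of 24).

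FPKM are not counts, so no count test was the main one. With gene spans of GENCODE M21 (found for 36429 of 38215 genes, 95.3%), the steps between low values gave each library's total, the worth of 1 read, and so estimated reads per gene. Of the values worth 0.5 to 100 reads, 62.5% lay within 0.05 of a whole number (10.0% by chance), so these reads are estimates. They set a filter (4 or more libraries with 10 or more estimated reads, or with FPKM of at least 0.1 for genes without a span), which kept 27042 genes and removed 11173.

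Changes were tested with limma 3.58.1 (statmod 1.5.0, R 4.3.3) on log2(FPKM + 1), with 6 group means over all libraries and trended, robust variances. Tests were two-sided, with Benjamini-Hochberg adjustment over all genes within each comparison, and genes with an adjusted p under 0.05 were called. The log2 fold changes are on this scale and understate those of genes with a low FPKM, so ratios of group means are given beside them. The 9 comparisons were crush in each strain, the differences between these responses, and naive strains against each other. The p-values measure the spread between libraries of a group. The procedure was tested on simulated reads that had the same spread setting for every gene and changes in well covered genes only. They held no shift shared by the genes of a library. That test therefore does not bear on such shifts or on genes with few reads.

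Values of every library are given for members with the 6 largest rises and 6 largest falls after crush, and the 3 largest called differences in each comparison of responses and of naive strains. The members and all gene lists were chosen with earlier results of these data known. Alternatives were another pseudocount, no filter, a stricter filter, upper-quartile or median-ratio scaling, log2(CPM + 0.5), voom on estimated reads, fits of only the groups compared, a replicate block, and each library left out. Leaving out 3 libraries together was added after seeing the data. The values of 1 further gene of the pathway are not reported here.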

Additional observations from a re-analysis of the deposited data

Results flagged for a closer look

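Within groups of 4 libraries, 96 sets of values (16 named genes in 6 groups) were searched for 1 library far from the other 3, by Dixon's criterion for groups of 4, and 4 were found. About 1 in 20 would be found by chance. Psmd11 had 0.283 FPKM in injured CAST replicate 3, against 0.249 to 0.252 in the others. Psma8 had 0.000425 in injured CAST replicate 2, against 0.000612 to 0.000639. Psmg2 had 1.33 in naive CAST replicate 3, against 1.22 to 1.23. Psmf1 had 0.456 in injured C57 replicate 1, against 0.480 to 0.483.

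The response to crush differed between strains in 7 members, by the limma test of the difference of log2 fold changes. Psmf1 stood 0.15 (SE 0.017, adjusted p = 2.97e-06) higher in CAST than in C57 and 0.16 (SE 0.017, adjusted p = 7.85e-07) higher than in DBA. For Psmc1 these limma differences were 0.20 (SE 0.062, adjusted p = 0.0391) and 0.31 (SE 0.062, adjusted p = 0.00112), and for Psmg1 -0.073 (SE 0.021, adjusted p = 0.0215) and -0.095 (SE 0.021, adjusted p = 0.00267). Psme1 and Psme2 responded more in CAST than in C57, by 0.16 (SE 0.045, limma adjusted p = 0.0193) and 0.15 (SE 0.034, adjusted p = 0.00531). Psmc2 and Psmd6 fell in DBA and were not called in CAST. Their log2 fold changes in CAST exceeded those in DBA by 0.20 each (SE 0.055 and 0.06, limma adjusted p = 0.0166 and 0.0266). Psmc2 differed by -0.18 between DBA and C57 (SE 0.055, limma adjusted p = 0.043). Of these 11 calls, those of Psmf1, Psme2, Psmc1 against DBA and Psmg1 against DBA held under every alternative that was run, and the other 6 were lost under at least 1.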

How the results depend on the processing

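Of the 28 changes of single genes picked by the naming rule, 910 of 947 alternative values stayed on the same side of the threshold, 37 lost the call and 0 turned. Because the rule picked the largest called changes, keeping the call was partly set by that choice. Psma8 and Psmb11 gave no value at 50 or more estimated reads. The losses were in Psma8 (crush, DBA), Psmc2 (response, DBA against C57), Psmb11 and Psmg4 (naive DBA against C57) and Psme1 (response, CAST against C57). Counts of members moved by over 1.5 times as follows, and the cause was not tested. With only the groups compared in the fit, crush in C57 gave 5 rises and 2 falls, the response 0 lower in CAST than in C57, 8 higher in CAST than in DBA and 0 lower in DBA than in C57, and naive ganglia 10 lower in CAST than in C57, and 0 higher and 5 lower in DBA than in C57. Responses higher in CAST than in DBA numbered 2 under upper-quartile, 2 under median-ratio scaling and 11 without the 3 libraries that stood apart. Responses lower in CAST than in C57 numbered 0 at log2(CPM + 0.5), and those lower in DBA than in C57 0 with no filter and under both scalings. In naive CAST, 7 members were higher and 11 lower than in C57 without the 3 libraries, and 2 (upper-quartile) or 3 (median-ratio) were higher than in DBA. Naive DBA had 1 member higher than C57 at 50 estimated reads or more, where 43 members were tested.

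The replicate numbers did not pair the samples: deviations of same-numbered naive and injured libraries correlated at -0.215 to 0.233, and in 4 of 12 cases the own number correlated best. With the replicate number as a block, 0 responses were lower in DBA than in C57, 5 members were lower in naive CAST than in naive DBA, and 1 was higher and 5 lower in naive DBA than in naive C57. No other count moved by over 1.5 times under the block.

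With each library left out in turn, rises and falls after crush numbered 8 to 13 and 3 to 5 in C57, 19 to 25 and 4 in CAST, and 9 to 14 and 6 to 9 in DBA. Higher and lower responses numbered 3 to 5 and 0 to 1 for CAST against C57, 3 to 7 and 1 for CAST against DBA, and 0 to 1 each for DBA against C57. Naive counts ran from 3 to 7 higher and 11 to 17 lower for CAST against C57, 3 to 8 and 6 to 11 for CAST against DBA, and 1 to 2 and 7 to 9 for DBA against C57. The falls in C57 numbered 3 without naive replicate 1 or 2 or injured replicate 2 or 4, and the 1 lower response in CAST than in C57 was lost without injured C57 replicate 2. Members higher in naive CAST than in naive DBA numbered 4 without naive CAST replicate 1 or 3 or naive DBA replicate 3, and 3 without naive DBA replicate 2. Of the members higher in naive DBA than in naive C57, 1 was left without naive C57 replicate 2 or naive DBA replicate 1 or 4. On other scales the median log2 change of members after crush in CAST was 0.14 (log2(FPKM + 0.1) and log2(CPM + 0.5)) and 0.17 (voom), against 0.079. Depth limits Psma8 and Psmb11 most, with 1 to 59 and 2 to 50 estimated reads per library.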
